A study of Homo sapiens with 12 samples.

Results

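The genes described here are the enzymes and transporters that carry glucose carbon through the cell: 4 carriers of glucose and lactate, 18 enzymes of glycolysis, 3 of the pentose phosphate pathway and 19 of the tricarboxylic acid (TCA) cycle. The last group also counts IDH1 and MDH1, whose enzymes are cytosolic. The genes were chosen by symbol, and all 44 symbols were among the 54628 rows of the count table. Poly(A) RNA was sequenced after 24 h of treatment from OCI-AML3, a long-established line grown from a human acute myeloid leukaemia. The study's title asks whether blocking ERK overcomes resistance to venetoclax. The 4 groups of 3 libraries were DMSO, the solvent alone; ABT199, which is venetoclax, an inhibitor of the survival protein BCL2; ERKi, an ERK inhibitor that the labels call only compound 27; and Comb, ABT199 together with ERKi. Doses were not stated in the labels, and all groups are the same line. The labels do not say whether replicates came from separate cultures, so p-values reflect the scatter of these libraries alone, and that scatter may be technical.

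Glycolysis splits glucose into pyruvate and yields ATP and NADH without oxygen, and lactate dehydrogenase regenerates the NAD it needs. The pentose phosphate pathway branches off at glucose 6-phosphate to make NADPH and ribose for nucleotides. The TCA cycle burns the acetyl groups of pyruvate in the mitochondrion and feeds electrons to the respiratory chain. In myeloid leukaemia both ends are used heavily, and IDH1 and IDH2 of this set are known for recurrent mutations in the disease. RNA levels, as given here, measure neither enzyme activity nor flux.

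Library totals ran from 19199296 to 21275065 counts. The first DMSO library stood apart from the other 2: the chi-square of its counts against theirs, divided by the degrees of freedom, came to 16.91 and 17.93, while other replicate pairs gave 2.337 to 5.52. It was over 0.2 higher on the log2 scale than the mean of the other 2 DMSO libraries for 17 of the 44 genes (38.6%, against 27.3% of all genes with counts). All 10 myeloid markers were detected in every group, and their summed level ran from 1110 to 1230 CPM with DMSO or venetoclax, 4280 to 4420 with ERKi and 5670 to 5910 with both drugs. Here CPM is the count per 1e+06 counts of the TMM-scaled library. LYZ, lysozyme, made up 15.3% to 17.9% of that sum with DMSO or venetoclax, 55.1% to 56.8% with ERKi and 68.0% to 69.3% with both. The other 9 markers summed to 929 to 1030, 1890 to 1920 and 1800 to 1870 CPM. Against DMSO 9 of the 10 rose with ERKi, beside 34.5% of all genes tested. MPO, myeloperoxidase, fell by 0.78 with ERKi and rose by 0.86 with both drugs. Mitochondrially encoded genes took 3.74% to 4.18% of counts with DMSO or venetoclax, 5.69% to 6.44% with ERKi and 8.86% to 10.2% with both. The 12 fibroblast or stroma markers summed to between 8.12 and 47.8 CPM in the DMSO, venetoclax and ERKi libraries and to between 2.92 and 3.24 CPM with both drugs, where THY1 and POSTN were at 0. The part of these marker and mitochondrial levels in the results was not tested. The erythroid markers HBB, HBG1 and HBG2 were at 0 in every group.

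ERKi lowered most of the 44 genes. All 44 genes passed the filter on low counts and were tested with edgeR's quasi-likelihood test, with Benjamini-Hochberg adjustment over 15173 genes and a call at an adjusted p under 0.05. Against DMSO, 36 fell and 3 rose with ERKi, while 35.2% of all genes tested fell and 34.5% rose. The median log2 fold change of the 44 was -0.63, beside 0.01 over all genes tested. With venetoclax alone 0 of the 44 were called in either direction (0.0198% of all genes rose and 0.382% fell), also by DESeq2, and 1 had an unadjusted p under 0.05. In bulk RNA, fewer cells of a type and less RNA per cell cannot be told apart.

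Summed over the 44 genes, the level was 18217, 15874 and 16057 CPM in the DMSO libraries, 16862, 16977 and 16222 with venetoclax, 10171, 10503 and 10110 with ERKi and 13152, 13589 and 13721 with both. The ERKi libraries were lowest and those with both drugs lay between them and the rest, with no overlap. As a share of the DMSO mean this was 61.4% with ERKi and 80.7% with both drugs, or 64.3% and 84.5% when the first DMSO library was left out. By role, ERKi left 53.1% of the DMSO level in the carriers, 57.1% in glycolysis, 72.3% in the TCA cycle and 91.5% in the pentose phosphate genes. With both drugs these were 62.8%, 78.0%, 85.0% and 119.0%. Every carrier, glycolysis and TCA sum with ERKi was below every DMSO sum, while 1 ERKi library of the pentose phosphate group lay above 2 DMSO libraries.

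**Figure D1:**
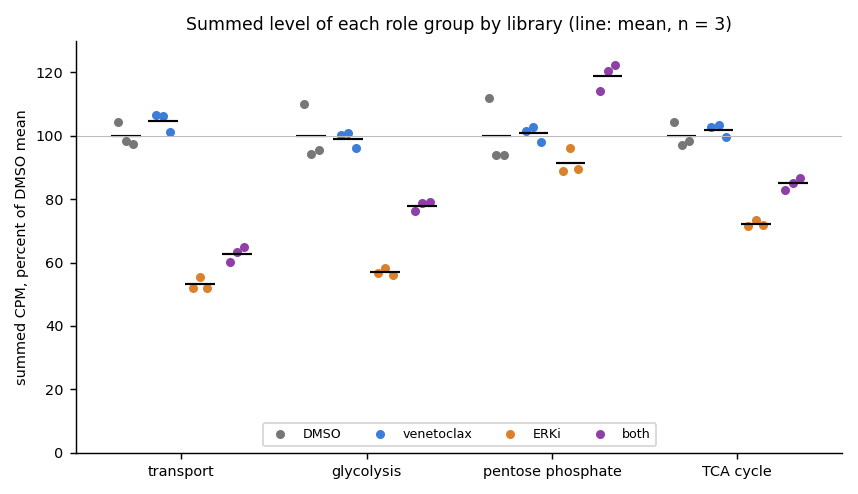
Summed CPM of each role group in each library, as a percentage of the mean of the 3 DMSO libraries (points: libraries, lines: means). The ERKi libraries are lowest in all 4 groups by their means, at 53.1% of DMSO for transport and 91.5% for pentose phosphate, and the libraries with both drugs are higher than the ERKi libraries in each.

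Per kilobase of exon, GAPDH was the most abundant of the set in DMSO at 1600.3 ± 221.0 CPM per kb (SD, n = 3), followed by LDHB at 862.1 ± 7.28 and ENO1 at 792.6 ± 84.8, a pair that did not differ beyond their spread. PGAM1 (390.4 ± 19.9), TPI1 (386.0 ± 53.5), LDHA (346.5 ± 8.34) and PKM (344.6 ± 38.4) formed the next group, with neighbours within their spread of each other. The lowest of the carriers by its mean was SLC2A3 at 17.0 ± 0.515 CPM per kb, within the spread of SLC2A1 (19.0 ± 2.57). Among the TCA genes the lowest was IDH3A at 6.42 ± 0.336. HK3 (1.2 ± 0.0723), ENO2 (0.809 ± 0.148) and ALDOA (0.263 ± 0.107) were lowest of all. ALDOA, the main muscle and blood aldolase, is uncertain: its row held 6 to 25 counts per library. A RefSeq gene, LOC112694756, on chromosome 16 (30053151 to 30070414) covers 99.9% of the span of ALDOA, and its own row held 4 to 43 counts.

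Stretches upstream of some of these genes are shown as background, and all those printed were picked to hold letters that were searched for. Factors known to read such letters are the MYC family, the hypoxia-inducible factors and the ETS family. Their part in the changes of these genes was not tested. RefSeq promoter sequences (GRCh38.p14, 250 bases before to 50 after each start) matched 40 of the 44 genes, and SLC2A3, SLC16A1, OGDH and SDHC had no entry. Capitals mark the E-box letters CACGTG, the hypoxia core ACGTG or GCGTG and the ETS core CCGGAAGT, searched on both strands, so that ACTTCCGG and CACGT are matches on the other strand. Each E-box also holds the hypoxia core, and the sequences are written 5′ to 3′ on the strand of the gene. The glycolytic pair GAPDH (chr12:6535123-6535242, + strand, inside the annotated span of the gene but in no exon) and PGK1 (chrX:78104005-78104124, + strand, upstream of the gene) read:
GAPDH: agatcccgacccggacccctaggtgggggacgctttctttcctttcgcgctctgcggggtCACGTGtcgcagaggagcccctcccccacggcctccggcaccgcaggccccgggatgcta
PGK1: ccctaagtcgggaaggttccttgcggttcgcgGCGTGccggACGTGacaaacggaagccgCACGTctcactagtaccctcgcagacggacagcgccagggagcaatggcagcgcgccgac
GENCODE exons cover 3 bases of the IDH3B stretch and 23 bases of the DLST stretch that follow. In the TCA cycle, IDH3B (chr20:2664217-2664336, - strand) and DLST (chr14:74881796-74881915, + strand) hold the ETS core just before their RefSeq starts:
IDH3B: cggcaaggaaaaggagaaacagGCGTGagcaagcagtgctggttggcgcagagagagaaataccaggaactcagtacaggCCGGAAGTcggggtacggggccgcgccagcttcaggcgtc
DLST: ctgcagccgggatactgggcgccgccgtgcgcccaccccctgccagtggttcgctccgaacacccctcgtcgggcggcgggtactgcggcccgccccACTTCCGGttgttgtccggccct
Sites of 30 bases are given for LDHA (chr11:18394471-18394500), HK2 (chr2:74834066-74834095), GPI (chr19:34364962-34364991, inside the annotated span of the gene), SDHD (chr11:112086784-112086813) and the pair in MDH2 (chr7:76047982-76048011 and chr7:76048026-76048055), all on the + strand:
LDHA: actcaCACGTGggttcccgCACGTccgccg
HK2: caatggGCGTGcgCACGTcactgatccgga
GPI: tgcccaccctccccactgccACTTCCGGgc
SDHD: accgcctctcgACTTCCGGttcacccagca
MDH2 upstream: ctttccgactcCCGGAAGTggccgtgatct
MDH2 downstream: ggcgagcgcgaCCGGAAGTccggtcactct

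The E-box was in 3 of the 40 promoters, those of LDHA, GAPDH and ALDOC (7.5%), against 7.43% of all 27305 promoters and 10.1% of those of tested genes. LDHA held it at 2 places. The hypoxia core was in 24 of 40 (60.0%), against 48.4% of all and 62.6% of those of tested genes. HK2, which rose, held the hypoxia core 3 times, and PGK1, which fell, 4 times. The ETS core was in 5 of 40 (12.5%), against 4.44% of all and 8.66% of those of tested genes, and 4 of these 5 were among the 17 TCA promoters (IDH3B, DLST, SDHD and MDH2), with GPI the other. All 5 of these genes and the 3 with an E-box fell with ERKi, as did 32 of the 40 members with a promoter entry. Of all 11022 tested genes with a promoter entry 4193 fell, and of all genes tested 35.2%. Of those 11022, 954 held the ETS core and 438 of them fell. The E-box was held by 1113, of which 499 fell. A match is a description of letters, not of binding.

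The 4 carriers fell with ERKi, beside 35.2% of all genes tested. With both drugs SLC2A1, SLC2A3 and SLC16A1 were below DMSO as well, beside 33.4% of all genes tested. SLC16A1 (MCT1), which exports and imports lactate with a proton, was measured at 139.6, 149.7 and 148.8 CPM with DMSO, 162.0, 156.6 and 153.9 with venetoclax, 58.6, 61.7 and 57.5 with ERKi and 74.5, 72.6 and 75.5 with both drugs. ERKi gave the lowest libraries, both drugs the next, and neither overlapped DMSO (ERKi against DMSO, log2 fold change -1.30, SE 0.049, adjusted p = 4.79e-13). SLC2A1 (GLUT1), the common glucose carrier on chromosome 1, 42925353 to 42958868, stood at 87.7, 69.8 and 70.1 CPM with DMSO, 75.7, 79.7 and 76.3 with venetoclax, 36.1, 37.3 and 38.5 with ERKi and 33.9, 37.7 and 36.5 with both drugs. Its ERKi and combination libraries overlapped each other and lay well under all others (ERKi against DMSO, log2 fold change -1.02, SE 0.077, adjusted p = 3.39e-09; both drugs against DMSO, log2 fold change -1.07, SE 0.078, adjusted p = 3.48e-09). SLC2A3 (GLUT3), the high-affinity glucose carrier, had 67.0, 68.0 and 64.1 CPM with DMSO, 68.2, 70.7 and 65.5 with venetoclax, 29.1, 35.5 and 33.1 with ERKi and 27.2, 30.3 and 32.4 with both drugs. The same order held, with both drug groups containing ERKi below the other groups and overlapping each other (ERKi against DMSO, log2 fold change -1.03, SE 0.072, adjusted p = 1.34e-09; both drugs against DMSO, log2 fold change -1.15, SE 0.073, adjusted p = 6.98e-10). SLC16A3 (MCT4), a lactate exporter of glycolytic cells, fell less, by 0.43 on the log2 scale with ERKi, and its libraries with both drugs overlapped DMSO (-0.02, adjusted p = 0.753). It shares 4.82% of its span with CSNK1D, whose row held 2345 to 2577 counts with DMSO and 3399 to 3515 with ERKi.

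**Figure D2:**
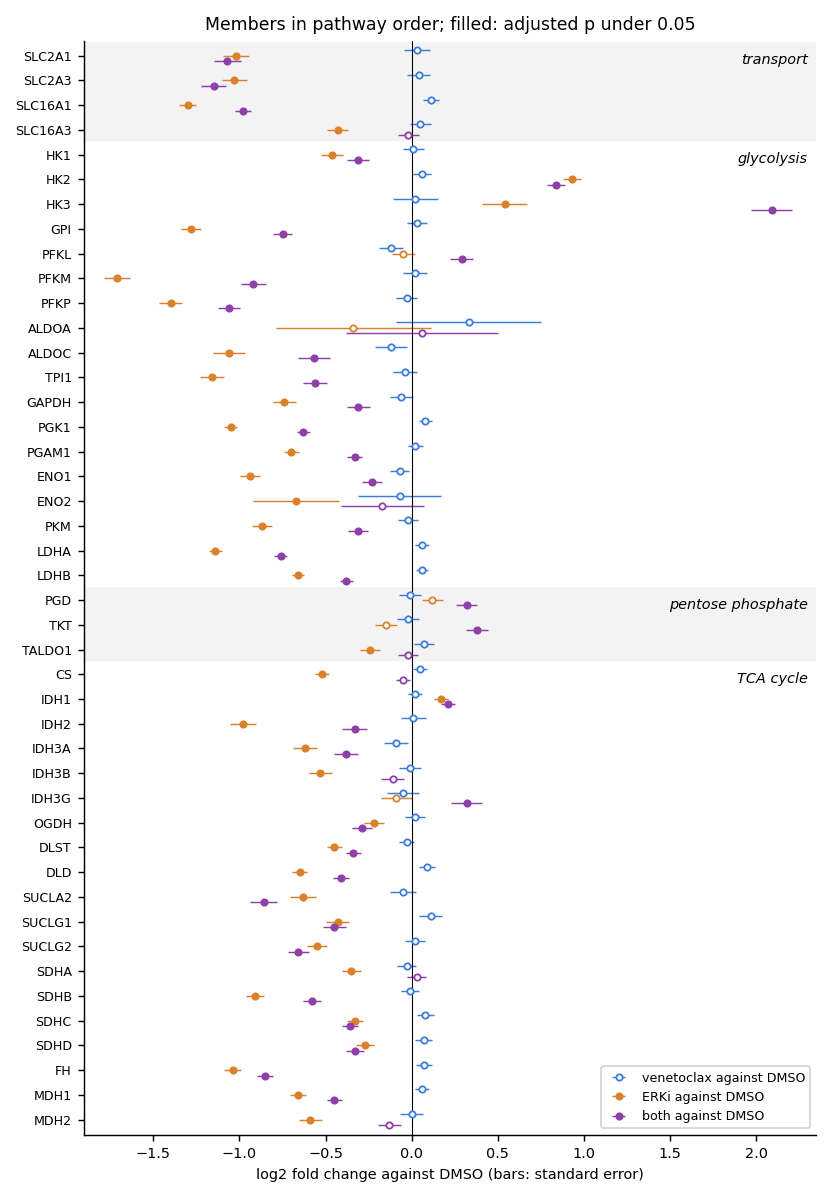
Log2 fold change of each gene against DMSO, with its standard error, for venetoclax, ERKi and both drugs, in pathway order; filled points have an adjusted p under 0.05. Most ERKi points lie left of 0, the largest fall being PFKM at -1.71, most combination points lie between them and 0, and no venetoclax point is filled.

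In glycolysis ERKi lowered 14 of 18 genes and raised 2, beside 35.2% and 34.5% of all genes tested. At the first committed step, PFKM, the muscle form of phosphofructokinase (chromosome 12, 48105353 to 48146404, RefSeq, GRCh38.p14), was at 48.4, 47.3 and 46.2 CPM with DMSO, 45.9, 52.4 and 45.7 with venetoclax, 15.6, 12.9 and 14.9 with ERKi and 26.3, 24.7 and 24.2 with both drugs. ERKi libraries were lowest and those with both drugs intermediate, with no overlap between either and DMSO (ERKi against DMSO, log2 fold change -1.71, SE 0.077, adjusted p = 4.37e-12). PFKM shares 1.77% of its span with SENP1, whose row held 1181 to 1293 counts with DMSO and 638 to 748 with ERKi. The part of reads from the shared span was not tested. PFKP, the platelet form, was at 168.4, 137.2 and 143.7 CPM with DMSO, 142.1, 146.9 and 149.8 with venetoclax, 58.6, 55.9 and 55.6 with ERKi and 71.0, 74.0 and 70.9 with both drugs. It showed the same order without overlap (ERKi against DMSO, log2 fold change -1.40, SE 0.065, adjusted p = 7.23e-12). PFKL, the liver form, did not pass the test with ERKi (-0.05, adjusted p = 0.514) and rose with both drugs (0.29, adjusted p = 0.00126).

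GPI, which turns glucose 6-phosphate into fructose 6-phosphate, was counted at 322.6, 279.2 and 302.7 CPM with DMSO, 311.5, 311.1 and 303.2 with venetoclax, 123.8, 127.9 and 121.7 with ERKi and 165.2, 190.4 and 183.7 with both drugs. No ERKi library reached any DMSO library (ERKi against DMSO, log2 fold change -1.28, SE 0.058, adjusted p = 5.44e-12). TPI1, which interconverts the triose phosphates, was at 972.4, 760.6 and 783.2 CPM with DMSO, 834.2, 837.7 and 781.6 with venetoclax, 375.0, 387.2 and 367.1 with ERKi and 568.4, 559.7 and 578.8 with both drugs. The first DMSO library was the highest, and the ERKi libraries lay far under all 3 (ERKi against DMSO, log2 fold change -1.16, SE 0.069, adjusted p = 1.88e-10). Pseudogene rows of TPI1 held 1.8% of its counts. ALDOC, the brain form of aldolase, whose row held more counts than that of ALDOA, was at 45.5, 35.5 and 33.6 CPM with DMSO, 35.6, 34.8 and 35.1 with venetoclax, 18.9, 16.9 and 19.0 with ERKi and 24.4, 26.4 and 26.2 with both drugs. Its ERKi libraries were lowest, again without overlap (ERKi against DMSO, log2 fold change -1.06, SE 0.095, adjusted p = 3.24e-08).

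PGK1, which makes the first ATP of the payoff phase, was at 873.7, 831.7 and 832.6 CPM with DMSO, 898.1, 915.4 and 862.7 with venetoclax, 409.2, 415.0 and 401.5 with ERKi and 541.3, 544.5 and 549.6 with both drugs. The spread within each group was small beside the gap between groups (ERKi against DMSO, log2 fold change -1.05, SE 0.038, adjusted p = 3.24e-13). ENO1, the main enolase (chromosome 1, 8861000 to 8878686), was at 2139.5, 1766.1 and 1811.0 CPM with DMSO, 1828.1, 1868.8 and 1749.1 with venetoclax, 993.4, 1008.7 and 983.0 with ERKi and 1569.2, 1635.8 and 1654.8 with both drugs. The ERKi libraries were lowest, and those with both drugs lay just under the lowest DMSO library (ERKi against DMSO, log2 fold change -0.94, SE 0.057, adjusted p = 2.18e-10; both drugs against DMSO, log2 fold change -0.23, SE 0.056, adjusted p = 0.00171). LDHA, the lactate dehydrogenase subunit that favours lactate production (chromosome 11, 18394563 to 18408425), was at 1057.2, 1012.1 and 1017.0 CPM with DMSO, 1084.0, 1094.1 and 1049.0 with venetoclax, 466.2, 478.3 and 458.8 with ERKi and 587.9, 608.4 and 622.4 with both drugs. Its ERKi and combination libraries were both under all DMSO libraries (ERKi against DMSO, log2 fold change -1.14, SE 0.038, adjusted p = 1.44e-13; both drugs against DMSO, log2 fold change -0.76, SE 0.038, adjusted p = 3.18e-11).

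The other glycolysis genes that fell with ERKi did so by 0.46 (HK1), 0.74 (GAPDH), 0.70 (PGAM1), 0.67 (ENO2), 0.87 (PKM) and 0.66 (LDHB) on the log2 scale. ENO2, the neuronal enolase, rested on few counts and its groups overlapped. Its adjusted p was 0.0225 with edgeR, and without the first DMSO library it did not pass (-0.57, adjusted p = 0.0734). Nor did it pass without DMSO replicate 2 (-0.64, adjusted p = 0.0524), ERKi replicate 1 (-0.49, 0.104) or ERKi replicate 2 (-0.58, 0.075). ALDOA did not pass (-0.34, adjusted p = 0.509).

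Of the hexokinases, which trap glucose in the cell, 2 rose with ERKi, beside 34.5% of all genes tested. HK2, the inducible form bound to mitochondria (chromosome 2, 74834127 to 74893359), was at 118.9, 137.8 and 137.6 CPM with DMSO, 135.0, 135.8 and 140.3 with venetoclax, 254.4, 252.5 and 246.4 with ERKi and 237.8, 230.3 and 237.9 with both drugs. All ERKi and combination libraries were above all DMSO and venetoclax libraries (ERKi against DMSO, log2 fold change 0.93, SE 0.052, adjusted p = 7.92e-11; both drugs against DMSO, log2 fold change 0.84, SE 0.053, adjusted p = 5.66e-10). HK3, the form typical of myeloid cells (chromosome 5, 176880869 to 176899346), was at 3.58, 3.53 and 3.94 CPM with DMSO, 3.74, 4.16 and 3.3 with venetoclax, 4.88, 5.31 and 5.82 with ERKi and 15.4, 16.0 and 15.8 with both drugs. It was low in DMSO, slightly higher with ERKi and highest with both drugs, with no overlap among these 3 groups (ERKi against DMSO, log2 fold change 0.54, SE 0.13, adjusted p = 0.00132; both drugs against DMSO, log2 fold change 2.09, SE 0.12, adjusted p = 2.47e-10). HK3 overlaps UNC5A over 0.162% of its span, and that row held at most 9 counts in a library.

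**Figure D3:**
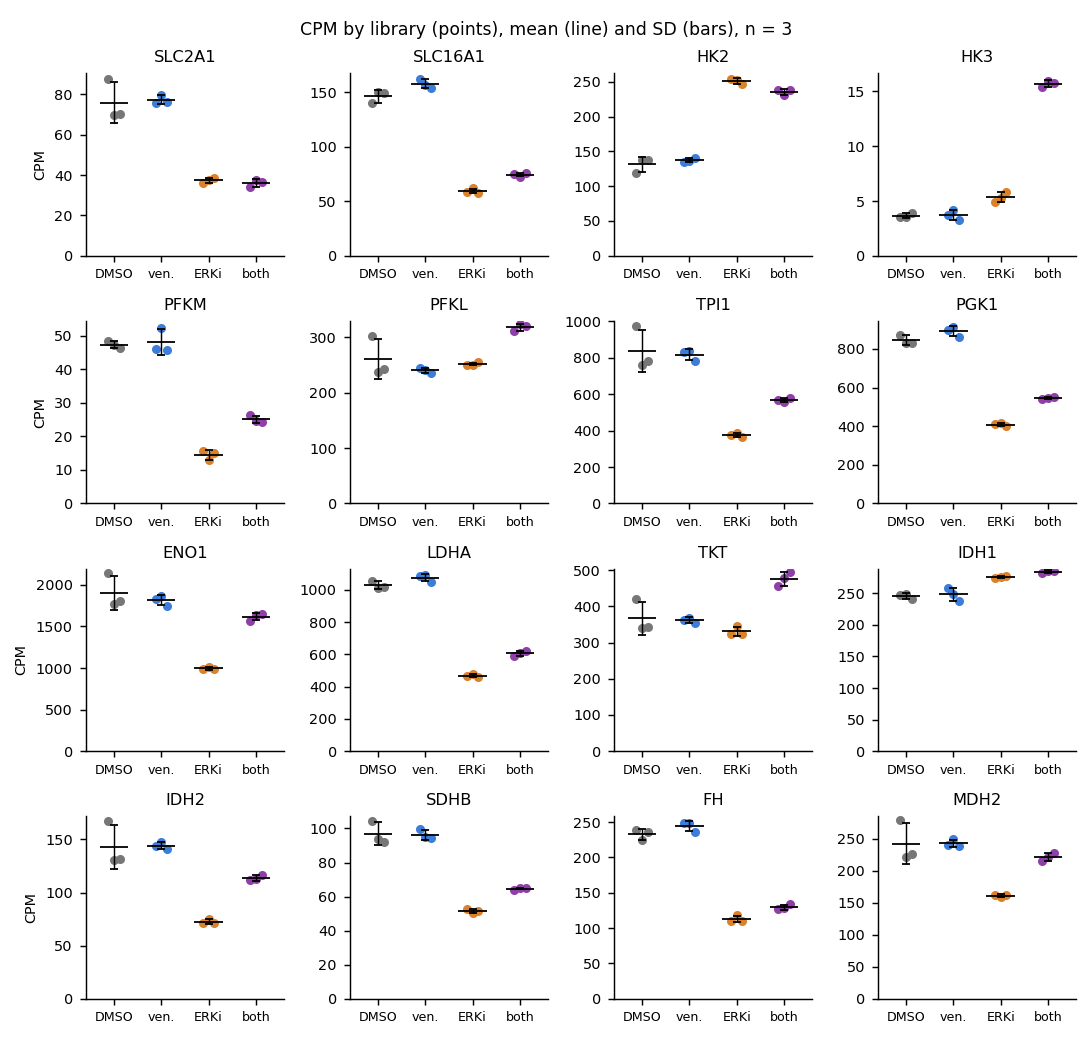
CPM of 16 of the genes in each library (points), with the mean (line) and SD (bars) of 3 libraries a group; axes start at 0. HK2, HK3 and IDH1 are higher in the groups with ERKi, with HK3 at 15.7 CPM with both drugs, PFKL and TKT are highest with both drugs, and the other 11 genes are lowest with ERKi or as low with both.

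Of the 3 pentose phosphate enzymes, ERKi lowered 1 (33.3%), near the 35.2% of all genes tested. TALDO1, transaldolase, was at 243.3, 216.6 and 214.4 CPM with DMSO, 238.1, 244.4 and 225.4 with venetoclax, 181.9, 202.6 and 186.1 with ERKi and 210.4, 230.3 and 224.1 with both drugs. ERKi libraries were all below the DMSO ones, while those with both drugs overlapped DMSO (ERKi against DMSO, log2 fold change -0.24, SE 0.058, adjusted p = 0.00149; both drugs against DMSO, log2 fold change -0.02, SE 0.058, adjusted p = 0.773). PGD, which makes NADPH by oxidising 6-phosphogluconate, did not pass with ERKi (0.12, adjusted p = 0.0931) and rose with both drugs (0.32, adjusted p = 0.000276). Without the first DMSO library PGD rose with ERKi as well (0.21, adjusted p = 0.000114). TKT, transketolase (chromosome 3, 53224712 to 53256022), was at 419.0, 339.8 and 342.2 CPM with DMSO, 363.4, 369.0 and 354.8 with venetoclax, 323.7, 346.1 and 324.9 with ERKi and 455.6, 479.4 and 493.8 with both drugs. With both drugs every TKT library lay above every other library, and with ERKi alone the change did not pass the test (both drugs against DMSO, log2 fold change 0.38, SE 0.065, adjusted p = 8.67e-05; ERKi against DMSO, log2 fold change -0.15, SE 0.065, adjusted p = 0.0555). TKT passed as lower with ERKi without DMSO replicate 2 (-0.21, adjusted p = 0.0126), DMSO replicate 3 (-0.20, adjusted p = 0.016) or ERKi replicate 2 (-0.18, adjusted p = 0.0399), and with no filter on low counts (-0.17, adjusted p = 0.00973).

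ERKi lowered 17 of the 19 genes grouped with the TCA cycle and raised 1, IDH1, beside 35.2% and 34.5% of all genes tested. IDH1, and MDH1 among those that fell, encode cytosolic enzymes. FH, which hydrates fumarate to malate (chromosome 1, 241497603 to 241519755), was at 238.6, 224.1 and 235.9 CPM with DMSO, 248.1, 248.7 and 236.7 with venetoclax, 110.6, 118.5 and 109.6 with ERKi and 126.5, 128.2 and 133.9 with both drugs. Both groups with ERKi lay far under the DMSO libraries, those with both drugs a little above those with ERKi alone (ERKi against DMSO, log2 fold change -1.04, SE 0.047, adjusted p = 4.53e-12; both drugs against DMSO, log2 fold change -0.85, SE 0.047, adjusted p = 1.23e-10). SDHB, the iron-sulfur subunit of succinate dehydrogenase, was at 104.5, 94.0 and 92.0 CPM with DMSO, 99.6, 94.9 and 94.4 with venetoclax, 52.6, 50.5 and 51.7 with ERKi and 64.1, 64.9 and 65.2 with both drugs. It was lowest with ERKi and intermediate with both, without overlap (ERKi against DMSO, log2 fold change -0.91, SE 0.054, adjusted p = 1.6e-10). The other subunits fell less: SDHA by 0.35, SDHC by 0.33 and SDHD by 0.27. Pseudogene rows of SDHA held 7.23% of its counts, so its level is less certain.

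IDH2, the mitochondrial isocitrate dehydrogenase that makes NADPH (chromosome 15, 90083045 to 90102468), was at 167.0, 130.9 and 131.6 CPM with DMSO, 144.2, 147.2 and 141.0 with venetoclax, 70.9, 75.1 and 71.1 with ERKi and 112.0, 112.6 and 116.5 with both drugs. ERKi libraries were lowest, and those with both drugs lay under the DMSO libraries without overlap (ERKi against DMSO, log2 fold change -0.98, SE 0.075, adjusted p = 3.82e-09; both drugs against DMSO, log2 fold change -0.33, SE 0.073, adjusted p = 0.000827). IDH1, its cytosolic counterpart, was at 248.1, 248.3 and 241.2 CPM with DMSO, 258.9, 248.8 and 237.8 with venetoclax, 274.7, 276.6 and 278.2 with ERKi and 282.1, 286.1 and 286.0 with both drugs. Every ERKi and combination library lay above every DMSO library, by a small margin (ERKi against DMSO, log2 fold change 0.17, SE 0.04, adjusted p = 0.00123; both drugs against DMSO, log2 fold change 0.21, SE 0.04, adjusted p = 0.000208). IDH3A, the catalytic subunit of the NAD-linked enzyme, was at 29.4, 26.8 and 27.0 CPM with DMSO, 25.2, 26.2 and 26.9 with venetoclax, 19.4, 17.6 and 17.2 with ERKi and 22.1, 20.5 and 21.2 with both drugs. Its ERKi libraries were lowest and its combination libraries next (ERKi against DMSO, log2 fold change -0.62, SE 0.07, adjusted p = 5.96e-07). IDH3B fell by 0.53 with ERKi, and IDH3G did not pass (-0.09, adjusted p = 0.401). IDH3G shares 2.52% of its span with SSR4, whose row held 782 to 1160 counts per library.

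MDH1, the cytosolic malate dehydrogenase, was at 167.2, 172.0 and 168.4 CPM with DMSO, 175.6, 180.2 and 175.2 with venetoclax, 107.2, 109.0 and 104.3 with ERKi and 121.3, 130.1 and 121.4 with both drugs. ERKi libraries were lowest, without overlap (ERKi against DMSO, log2 fold change -0.66, SE 0.044, adjusted p = 6.36e-10). The MDH1 span lies wholly inside that of WDPCP, whose row held 116 to 210 counts. MDH2, the mitochondrial form, was at 279.0, 221.2 and 225.8 CPM with DMSO, 240.4, 248.7 and 238.4 with venetoclax, 162.3, 158.6 and 161.8 with ERKi and 214.6, 221.7 and 227.3 with both drugs. The ERKi libraries were lowest, and those with both drugs overlapped DMSO (ERKi against DMSO, log2 fold change -0.59, SE 0.067, adjusted p = 6.96e-07; both drugs against DMSO, log2 fold change -0.13, SE 0.067, adjusted p = 0.101).

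DLD, the dihydrolipoamide dehydrogenase shared by the pyruvate and oxoglutarate complexes, was at 259.5, 279.7 and 277.8 CPM with DMSO, 298.6, 294.5 and 277.7 with venetoclax, 169.3, 180.0 and 171.3 with ERKi and 202.6, 202.3 and 208.0 with both drugs. ERKi libraries were lowest and combination libraries intermediate (ERKi against DMSO, log2 fold change -0.65, SE 0.045, adjusted p = 1.34e-09). SUCLA2, the ADP-forming subunit of succinate-CoA ligase, was at 30.7, 34.0 and 36.4 CPM with DMSO, 34.0, 33.5 and 30.5 with venetoclax, 22.6, 22.3 and 20.2 with ERKi and 18.7, 18.6 and 18.2 with both drugs. Here the combination libraries, not those with ERKi alone, were lowest (ERKi against DMSO, log2 fold change -0.63, SE 0.074, adjusted p = 9.14e-07; both drugs against DMSO, log2 fold change -0.86, SE 0.076, adjusted p = 3.89e-08). The remaining TCA genes fell with ERKi by 0.52 (CS, citrate synthase), 0.22 (OGDH), 0.45 (DLST), 0.43 (SUCLG1) and 0.55 (SUCLG2) on the log2 scale. With library totals in place of TMM factors, the OGDH change did not pass (-0.13, adjusted p = 0.0504).

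With both drugs against DMSO, 29 of the 44 fell and 7 rose, beside 33.4% and 30.4% of all genes tested. The median was -0.33, against -0.01 over all genes. The 7 were HK2 (0.84), HK3 (2.09), PFKL (0.29), PGD (0.32), TKT (0.38), IDH1 (0.21) and IDH3G (0.32). This comparison shares the DMSO libraries with that of ERKi. Adding ERKi to venetoclax, a comparison with another control group, lowered 30 and raised 7 of the 44 (34.2% and 32.1% of all genes), with a median of -0.33. Those that rose were HK3 by 2.07, HK2 by 0.78, PFKL by 0.40, TKT by 0.39, IDH3G by 0.38, PGD by 0.33 and IDH1 by 0.20.

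The comparison of both drugs with ERKi alone asks whether venetoclax moved these genes in ERKi-treated cells. Venetoclax on top of ERKi raised 31 of the 44 and lowered 1, while 26.5% of all genes tested rose and 24.3% fell. Both this comparison and that of ERKi with DMSO use the ERKi libraries. Of the 36 genes that ERKi lowered 26 rose here, beside 51.9% of all genes that ERKi lowered. The median was 0.34. By role, 2 of 4 carriers, 14 of 18 glycolysis genes, 3 of 3 pentose phosphate genes and 12 of 19 TCA genes rose. Rises in glycolysis included HK3 by 1.56, PFKM by 0.80, ENO1 by 0.70, TPI1 by 0.60, PKM by 0.55 and GPI by 0.53 on the log2 scale. In the TCA cycle IDH2 rose by 0.65, CS by 0.47, MDH2 by 0.46, IDH3B by 0.42, IDH3G by 0.41 and SDHA by 0.38. SUCLA2 fell by 0.23 (adjusted p = 0.0216), a call that did not pass without ERKi replicate 1 (-0.20, adjusted p = 0.0829), ERKi replicate 2 (-0.21, 0.0696) or Comb replicate 3 (-0.23, 0.0539).

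Genes that did not pass in that comparison were SLC2A1 (-0.05), SLC2A3 (-0.12), HK1 (0.15), HK2 (-0.09), ALDOA (0.41), ENO2 (0.50), IDH1 (0.04), OGDH (-0.08), SUCLG1 (-0.02), SUCLG2 (-0.11), SDHC (-0.02) and SDHD (-0.06). When library totals replaced the TMM factors, the median of all genes moved by about -0.13, and 25 of the 44 rose and 7 fell. Of all called genes, 34.8% were then higher with both drugs, against 52.1% with TMM. Under that scaling DLST changed sign (0.11, adjusted p = 0.0414, against -0.01, adjusted p = 0.809). Its call was also lost with no filter on low counts (0.14, adjusted p = 0.0542) and with the minimum CPM filter (0.09, 0.0682). TMM without mitochondrially encoded genes lost it too (0.10, adjusted p = 0.072), as did leaving out any single venetoclax, ERKi or Comb library. Without the mitochondrially encoded genes in the scaling, 30 rose and 1 fell.

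The interaction tests whether ERKi acted differently in the presence of venetoclax, as the ERKi change with venetoclax minus that without it. It was positive for 25 of the 44 and negative for 0, beside 21.3% and 18.0% of all genes tested. Of the 36 members that ERKi lowered 21 had a positive interaction, beside 41.8% of all genes that ERKi lowered. The interaction and the comparison of ERKi with DMSO both use the ERKi and DMSO libraries. Genes picked as lowered by ERKi therefore lean towards a positive interaction in advance. For the 44, DESeq2 gave 26 positive and 0 negative, and no negative value had an unadjusted p under 0.05. By role the 25 were 2 of 4 carriers, 14 of 18 glycolysis genes, 1 of 3 pentose phosphate genes and 8 of 19 TCA genes. The median was 0.33, against 0.01 over all genes. HK3 had the largest value at 1.54 (SE 0.18, adjusted p = 7.56e-06): ERKi raised it by 0.54 without venetoclax and by 2.07 with it. For PFKM the value was 0.77 (SE 0.11, adjusted p = 4.07e-05), from -1.71 without venetoclax to -0.94 with it.

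ENO1 moved as far, at 0.77 (SE 0.08, adjusted p = 2.66e-06), from -0.94 without venetoclax to -0.16 with it. IDH2 followed at 0.64 (SE 0.10, adjusted p = 0.000181), from -0.98 to -0.34. The carriers SLC2A1 (-0.08, adjusted p = 0.614) and SLC2A3 (-0.16, adjusted p = 0.239) and the ligase subunits SUCLA2 (-0.18), SUCLG1 (-0.13) and SUCLG2 (-0.13) did not pass. Without the first DMSO library 27 were positive and 3 negative, the latter being SLC2A1 (-0.19), OGDH (-0.17) and SUCLG1 (-0.20). With library totals 22 were positive and 7 negative, and 38.3% of all called genes were positive against 54.2% with TMM.

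**Figure D4:**
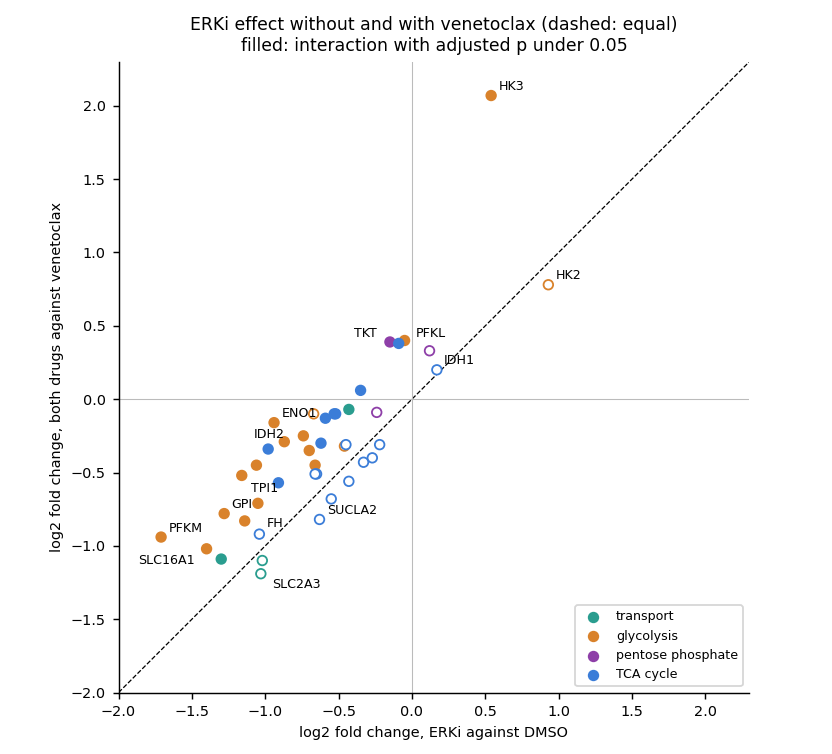
Log2 fold change of ERKi against DMSO (x) and of both drugs against venetoclax (y) for 43 of the genes, ALDOA left out for its few counts; filled points have an interaction with an adjusted p under 0.05. Filled points lie above the dashed line of equal change, with HK3 farthest from it at 0.54 and 2.07, while SLC2A3 and SUCLA2 lie just under the line.

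The make-up of gene families was measured as the share of each gene in the summed CPM per kb. HK2 made up 49.8%, 55.5% and 56.1% of hexokinase in the DMSO libraries, 76.1%, 72.9% and 74.0% with ERKi and 67.7%, 66.9% and 66.7% with both drugs. HK3 went from a mean of 2.92% with DMSO to 3.06% with ERKi and 8.7% with both. PFKL held 65.1%, 63.6% and 63.2% of phosphofructokinase in DMSO, 81.9%, 82.9% and 82.9% with ERKi and 81.3%, 81.6% and 82.0% with both. The liver form of phosphofructokinase and HK2 thus took larger shares in every ERKi library than in any DMSO library.

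LDHA made up 28.7% ± 0.6 of lactate dehydrogenase in DMSO, 22.4% ± 0.3 with ERKi and 23.6% ± 0.17 with both (SD, n = 3), the rest being LDHB. The share of SLC16A1 among the 2 lactate carriers went from 58.5% ± 2.8 to 43.6% ± 0.43 with ERKi. IDH1 took 63.5% in DMSO, 79.4% with ERKi and 71.6% with both of the NADP-linked isocitrate dehydrogenase. Exact two-sided permutation tests of 42 log2 count ratios within families gave the smallest p that 3 against 3 allow, 0.1, for 19 ratios (adjusted p = 0.221), so no ratio could pass the threshold. The ratio of SLC2A1 to SLC2A3 differed from DMSO by 0.01 with ERKi and by 0.08 with both on the log2 scale, and its libraries overlapped.

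**Figure D5:**
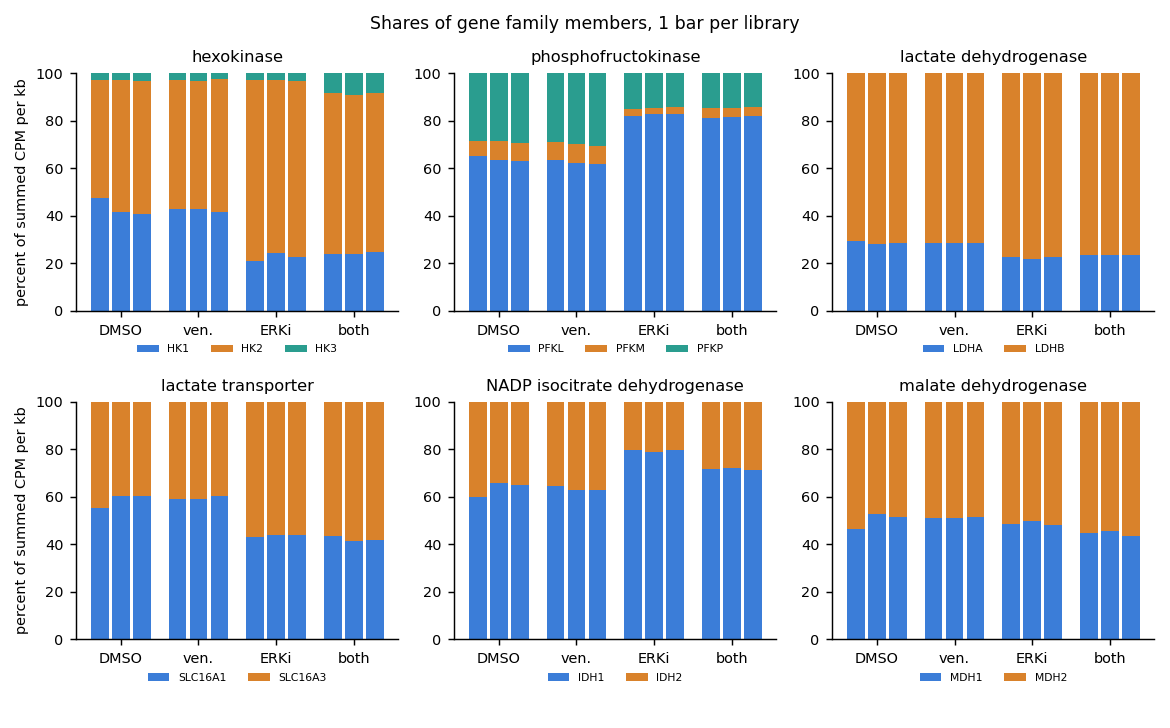
Share of each gene in the summed CPM per kilobase of its family, with 1 bar per library and 3 libraries per group. The HK2 and PFKL shares are larger in every library with ERKi than in any DMSO library, HK3 is largest with both drugs at a mean of 8.7%, and the MDH1 share is near 50.2% in DMSO.

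For the other genes of these pathways, the share of all genes tested to read the counts against is 34.5% higher and 35.2% lower with ERKi. Of 10 tested genes outside the set that were grouped with the sugar and lactate carriers, 2 rose (20%) and 4 fell (40.0%), the latter near that share. SLC16A7 (-0.58), SLC2A5 (-0.36) and BSG (-0.30), the chaperone of the lactate carriers, were among those that fell, and SLC2A13 (0.60) and SLC2A9 (0.25) rose. Of 14 further glycolysis genes 5 rose (35.7%) and 4 fell (28.6%), both near the share over all genes. PFKFB3, which makes the activator of phosphofructokinase, rose by 0.94 and FBP1, which runs the step backwards, by 0.55, while PGM2 (-0.78), BPGM (-0.75) and TIGAR (-0.51) fell.

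In the pentose phosphate pathway, 2 of 9 further genes rose (22.2%) and 5 fell (55.6%), beside 34.5% and 35.2% of all genes tested. The falls were in PRPS1 (-1.47) and PRPS2 (-1.06), which make the ribose donor for nucleotides, SHPK (-0.85), RPIA (-0.80) and RPE (-0.79). Around the TCA cycle 4 of 21 genes rose (19.0%) and 13 fell (61.9%). PCK2, the mitochondrial enzyme that makes phosphoenolpyruvate, was at 136.7, 121.0 and 127.7 CPM with DMSO, 117.6, 124.4 and 115.0 with venetoclax, 42.4, 45.2 and 41.0 with ERKi and 47.0, 49.1 and 44.7 with both drugs. Both groups with ERKi lay under the others. ME1, the cytosolic malic enzyme, was at 17.0, 19.5 and 17.8 CPM with DMSO, 18.3, 21.5 and 18.7 with venetoclax, 45.8, 47.4 and 42.8 with ERKi and 19.7, 21.4 and 20.1 with both drugs. It was high only in the 3 ERKi libraries (interaction -1.26, adjusted p = 5.68e-07). ACLY (-1.09), which cleaves exported citrate into acetyl units, and GOT2 (-1.04) fell.

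Among 12 tested hypoxia response genes outside these pathways, 6 rose (50%) and 3 fell (25.0%) with ERKi, beside 34.5% and 35.2% of all genes tested, with a median of 0.24 where the 44 had -0.63. BNIP3L rose by 0.95, BNIP3 by 0.52 and KDM3A by 0.49, while DDIT4 fell by 2.12 and P4HA1 by 0.54. Among 15 regulators of sugar metabolism genes, 6 rose (40.0%) and 7 fell (46.7%), not far from those shares. MYC, a transcription factor known to drive glycolytic genes, was at 334.7, 296.8 and 286.5 CPM with DMSO, 276.2, 302.3 and 276.9 with venetoclax, 159.9, 167.1 and 158.0 with ERKi and 242.7, 234.3 and 243.8 with both drugs. It was lowest with ERKi and intermediate with both drugs (-0.92 and -0.35 against DMSO, interaction 0.67, adjusted p = 9.34e-06). EPAS1, the hypoxia-inducible factor 2 alpha, was at 106.3, 111.6 and 114.7 CPM with DMSO, 102.5, 103.8 and 100.8 with venetoclax, 568.6, 605.2 and 582.7 with ERKi and 345.1, 353.9 and 374.3 with both drugs. Its order was the reverse, highest with ERKi (2.40) and intermediate with both (1.69, interaction -0.60, adjusted p = 3.86e-06). MLXIP, a glucose-sensing factor, rose by 0.87, and the mitochondrial gene regulators PPRC1 (-1.0) and TFAM (-0.94) fell. Whether any of these regulators had a part in the changes of the 44 genes was not tested.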

How the data were processed

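The deposited table holds raw read counts per gene symbol for 12 libraries, and per the submitters' processing notes the authors used HISAT2, HTSeq and DESeq2 with hg38. Tool versions, the gene annotation and whether strand was used in counting were not stated. How reads on overlapping and antisense genes were assigned or dropped is therefore not known. Genes were kept by filterByExpr in edgeR 4.0.16 (R 4.3.3; minimum count 10, minimum total 15), which left 15173. TMM factors scaled the libraries, and 1 model with a coefficient per group was fitted to all 12 (8 residual degrees of freedom, biological coefficient of variation 0.073). Tests were edgeR's quasi-likelihood F tests with Benjamini-Hochberg adjustment over all genes tested. The prior count for log2 fold changes was 0.125, and a standard error (SE) was obtained as the absolute log2 fold change over the root of its F statistic. TMM assumes that the bulk of genes did not change, and fold changes are relative to that. CPM is the deposited count divided by the scaled library size, times 1e+06, and levels per kilobase divide it by the union of GENCODE exons. The 44 genes and the other lists were chosen with earlier results of these data known.

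All 44 genes are named. Values in every library are printed for called genes with the largest absolute ERKi change per role (up to 3 carriers, 8 glycolysis, 3 pentose phosphate and 8 TCA genes) and for the 4 largest interactions. HK2, TKT, IDH1 and, outside the set, PCK2, ME1, MYC and EPAS1 were added after their values were seen. From each other list up to 5 called genes with a mean of at least 5 CPM are named, apart from an item that is not reported here. Isozyme ratios were compared by exact permutation tests. Same-numbered replicates did not deviate together (correlations from -0.0736 to 0.0936), so they were not treated as pairs. On simulated counts with 14302 genes tested, ERKi against DMSO found 97.0% of the genes set to change 1.5-fold and 100.0% of those set to 2-fold, beside 12 false calls, and the interaction found 70.1% and 98.5%, beside 11. The simulation gave all genes the same biological spread and changed a small set of well-counted genes in ERKi alone. In the measured data 34.5% of genes rose and 35.2% fell with ERKi, so these rates may not carry over. Alternatives were RLE size factors, library totals, TMM without mitochondrially encoded genes, DESeq2 1.42.0, all genes unfiltered, a minimum of 1 CPM in 3 libraries, a block for replicate number, a fit to the compared libraries alone, and fits that each omitted 1 library. Their use on the summed levels was added after seeing the data. Python 3.11.15 and matplotlib 3.10.9 drew the figures.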

Additional observations from a re-analysis of the deposited data

Results flagged for a closer look

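For 25 of the 44 genes the change with ERKi differed between cells with and without venetoclax, by edgeR's test of the interaction. Each value below is the ERKi log2 change with venetoclax minus that without it, and all are positive. Over all genes tested, 21.3% had a positive and 18.0% a negative interaction. Of all genes that ERKi lowered, 41.8% had a positive one, and both tests use the ERKi and DMSO libraries. Among the carriers, those of the 25 were SLC16A3 (0.36) and SLC16A1 (0.21). In glycolysis they were HK3 (1.54), PFKM (0.77), ENO1 (0.77), TPI1 (0.63), ALDOC (0.61), PKM (0.58), GPI (0.50), GAPDH (0.48), PFKL (0.45), PFKP (0.38), PGAM1 (0.35), PGK1 (0.34), LDHA (0.31) and LDHB (0.21). TKT (0.54) was the one pentose phosphate gene. The TCA genes were IDH2 (0.64), IDH3G (0.46), MDH2 (0.46), CS (0.42), IDH3B (0.42), SDHA (0.42), SDHB (0.33) and IDH3A (0.32). HK3 differs from the rest in that ERKi raised it in both settings, while PFKL, TKT and IDH3G rose with ERKi in the presence of venetoclax and did not pass the test without it. Of the 25, SLC16A1, LDHB and IDH3A did not pass under at least 1 alternative.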

How the results depend on the processing

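Calls of the 44 genes held their direction under the alternatives run, apart from DLST with venetoclax added to ERKi, which went from 0.11 to -0.01 with library totals. Of 39 calls with ERKi against DMSO, 37 held under every alternative (ENO2 and OGDH did not), as did all 36 with both drugs against DMSO, 35 of 37 against venetoclax (not CS and ENO1), 25 of 32 against ERKi and 22 of 25 interactions. The 7 lost against ERKi were DLST, FH, IDH3A, MDH1, PGD, SUCLA2 and TALDO1. Genes that passed only under some alternative numbered 2 with ERKi (PGD and TKT), 2 with both drugs against DMSO, 4 against venetoclax, 8 against ERKi and 13 for the interaction. The count of genes lowered by venetoclax on top of ERKi (1) became 7 with library totals, 0 with no filter, 2 with only the libraries compared, and 0 to 2 with single libraries left out. The count of negative interactions (0) became 7 with library totals and 0 to 3 with single libraries left out. The cause was not tested. Library totals moved the median log2 change of all genes by about 0.10 for ERKi against DMSO and -0.10 for the interaction.

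With the replicate block, a fit that pairs libraries by number, 2 calls were lost: CS with both drugs against venetoclax (-0.10, adjusted p = 0.0618) and DLST with both drugs against ERKi (0.11, adjusted p = 0.0603). The block left 36 genes lower and 3 higher with ERKi. Of the 42 isozyme ratios, 14 changed sign without 1 library, each of them a ratio whose groups overlapped. Low counts limit ALDOA and ENO2.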
